A study of Mus musculus with 7 samples.

Results

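The segments described here are the variable (V) and joining (J) gene segments of the mouse immunoglobulin loci, measured in islet RNA of a congenic strain with lymphocytes and of a strain without mature T and B cells. They were taken as every probe set of the deposited comparison table whose gene symbol begins with Ighv, Igkv, Iglv, Ighj, Igkj or Iglj and a digit, with no probe set left out. There were 16 such probe sets of 34351 tested, and they carried 14 symbols. Of these, 8 lay at the heavy chain locus on chromosome 12 (3 V and 5 J probe sets by symbol). The other 8 lay at the kappa light chain locus on chromosome 6 (5 V and 3 J probe sets by symbol), and 0 were from the lambda locus.

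An antibody chain is encoded by segments that lie apart in the germ line. In developing B cells the recombinase made of Rag1 and Rag2 cuts and joins a V to a J segment at the light chain loci, and a V, a D and a J segment at the heavy chain locus, so that each B cell clone carries its own V and J choice, which is then transcribed and spliced to a constant region such as Igkc or Ighm. A V segment is therefore read strongly only in the cells that chose it, while one of the few J segments of a locus is part of every rearranged chain, and plasma cells transcribe the joined gene at a far higher rate than resting B cells.

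The study used islets isolated at 10 to 12 weeks of age, each array holding a pool of 200 to 250 islets from 2 mice. NOD_Idd22 islets (4 pools) came from NOD.ALRc8(D8Mit293-D8Mit137) mice, a NOD congenic strain in which chromosome 8 between these markers is from ALR and Rag1 is intact. NOD-Rag1-/- islets (3 pools) came from NOD mice whose Rag1 gene is knocked out, which the study used in place of plain NOD mice because islet inflammation varies between NOD mice of that age. Neither group received a treatment. The groups differ at least in Rag1, with any donor strain sequence kept around it, and in the chromosome 8 segment at once. The part of each cannot be told apart. Because NOD-Rag1-/- mice cannot rearrange V, D and J segments, their values give the background of each probe set measured the same way.

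The values are log2 expression values that the authors made with RMA from Affymetrix Mouse Gene arrays, and log2 fold changes are NOD_Idd22 minus NOD-Rag1-/-. A difference was called at an adjusted p under 0.05 by limma over all tested probe sets. Pools correlated at 0.976 to 0.986 within NOD_Idd22 and 0.984 to 0.993 within NOD-Rag1-/- over all tested probe sets. By the lower quartile of its values an array fell into one of 2 sets, 2.49 to 2.50 (NOD_Idd22 replicate 1 with NOD-Rag1-/- replicates 2 and 3) or 2.64 to 2.68 (the other 4 pools). NOD-Rag1-/- replicate 1 stood apart in sex-linked transcripts, with a value of 6.25 for the Y-linked gene Ddx3y (picked after its values were seen), against 1.99 to 2.08 in the NOD_Idd22 pools and 2.01 and 2.04 in the other NOD-Rag1-/- pools. The Xist probe set on chromosome X was at 2.61 in it, against 8.87 to 9.37 in the NOD_Idd22 pools and 8.87 and 8.79 in the other NOD-Rag1-/- pools. These are the values of a male pool among female pools, while the labels give no sex. Calls are therefore also given without that pool, and differences within each set of arrays.

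Symbols and positions were set against RefSeq (GRCm38), in which 97.1% of 23016 symbols found on the same chromosome overlapped their listed position. The symbol and the position disagreed for 3 of the 16 probe sets. An Ighj2 probe set at chr12:113429781-113429833 lies exactly on RefSeq Ighj1, 266 bases from RefSeq Ighj2. The only Ighj1 probe set, at chr12:113459864-113459892, lies 30031 bases from RefSeq Ighj1 on the D pseudogene Ighd5-8. An Igkv4-71 probe set at chr6:69267888-69268412 lies on Igkv4-70. The other 13 lie on their own segment, 9 of them with the same start, though the remaining Ighj2 probe set shares only 2 bases with it. These probe sets are named below by symbol with the segment at their position.

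The V and J segments that passed the test were higher in NOD_Idd22 islets than in NOD-Rag1-/- islets, and 3 of the 4 were J segments by position. Of the 16 probe sets, 4 were called higher by limma, against 0.146% of all tested probe sets, and 0 were called lower, against 0.0116%. These were Ighj4, the Ighj2 probe set on Ighj1, Igkj1 and the Igkv4-71 probe set on Igkv4-70, with log2 fold changes of 2.14 to 5.37. At the threshold the study used, which asks for more than 0.5 log2 unit in either direction and an unadjusted p of at most 0.05, 10 of 16 were higher, against 3.81% of all tested, and 0 were lower, against 1.78%. At an unadjusted p under 0.05 alone the counts were also 10 higher and 0 lower, against 3257 of 34351 tested in either direction. The NOD_Idd22 pools all lay above the NOD-Rag1-/- pools for 8 of 16 probe sets, against 4.43% of all tested, and all below for 0, against 2.74%. The median log2 fold change was 1.31, against 0.02 over all tested probe sets. By segment, as read from the symbol, it was 4.24 for the 8 J probe sets and 0.31 for the 8 V probe sets. The 8 J probe sets include the Ighj1 probe set on Ighd5-8 and the Ighj2 probe set that shares only 2 bases with its segment. By locus it was 0.51 for the heavy chain and 1.60 for kappa, an order that the V probe sets without a symbol, described below, did not share. Within the arrays of lower and of higher quartile the median was 1.30 and 0.87.

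**Figure D1:**
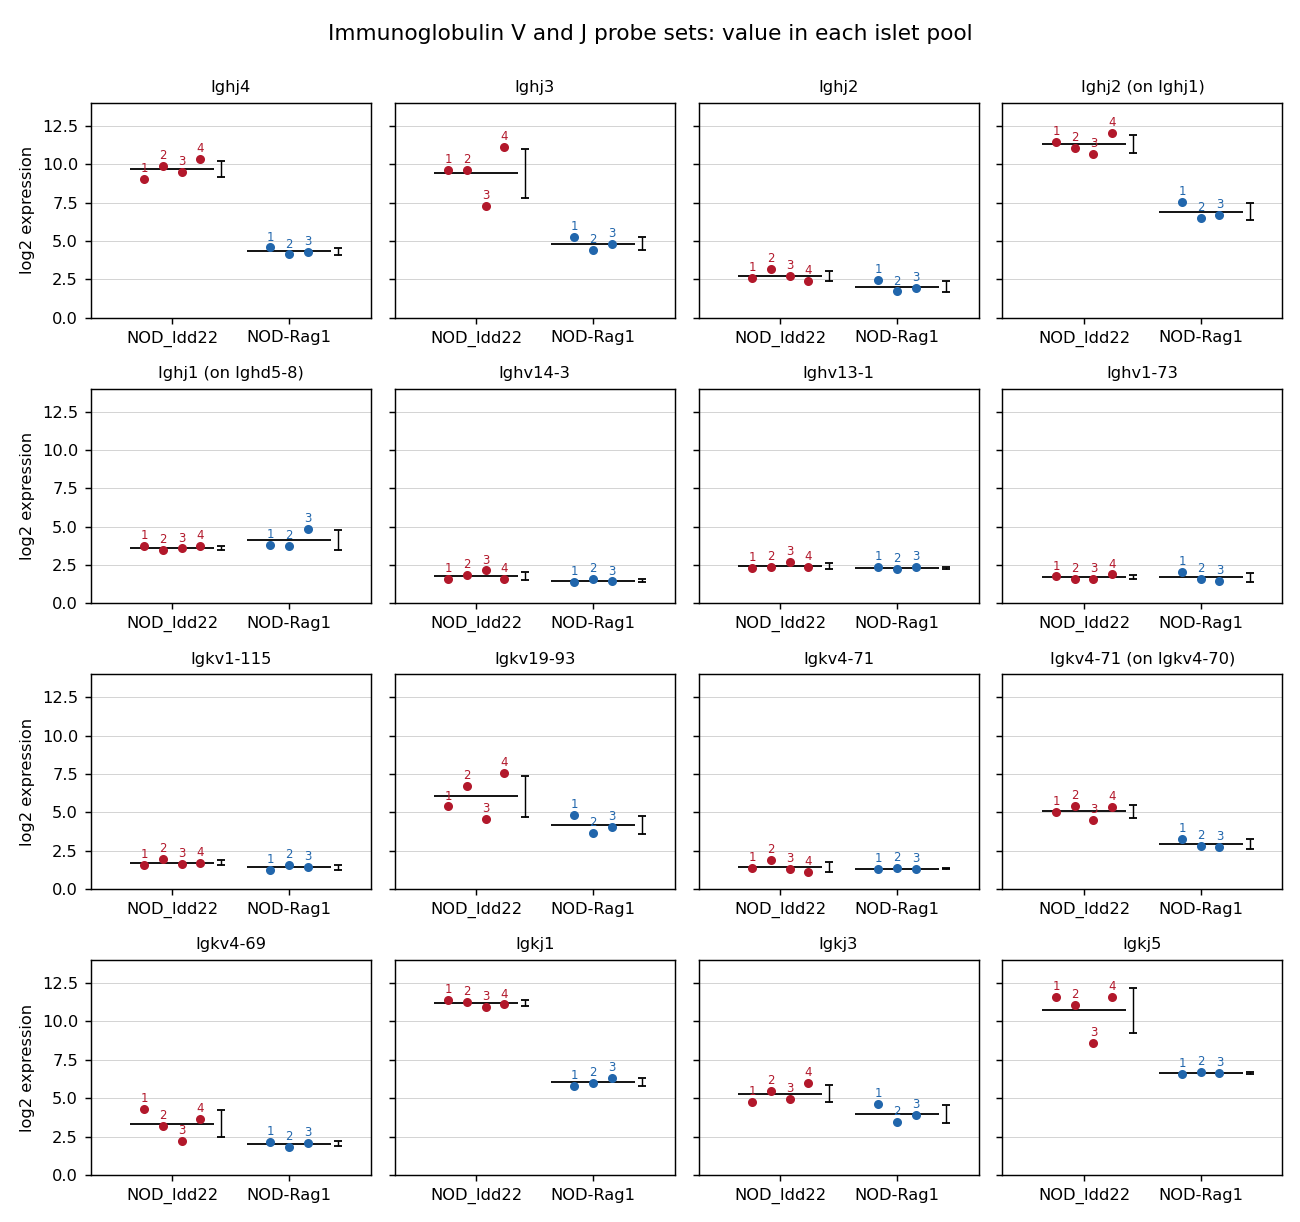
Log2 expression of each of the 16 probe sets (panels, in order of position, heavy chain before kappa) in the 4 NOD_Idd22 pools (left, red) and the 3 NOD-Rag1-/- pools (right, blue), with the replicate number beside each point, the group mean as a line and the SD as a bar. In 8 panels all red points lie above all blue points, and in Ighj3 and Igkj5 the NOD_Idd22 replicate 3 point lies well below the other red points.

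Igkj1, the first J segment of the kappa locus (chr6:70722562-70722599), was at a like level in all 4 congenic pools. It was at 11.41, 11.28, 10.94 and 11.11 in NOD_Idd22 replicates 1 to 4, and at 5.82, 5.99 and 6.31 in NOD-Rag1-/- replicates 1 to 3. The groups were thus far apart and each was tight, with means of 11.18 ± 0.21 (SD, n = 4) in NOD_Idd22 and 6.04 ± 0.25 (SD, n = 3) in NOD-Rag1-/-. The log2 fold change was 5.14 (standard error, SE, 0.16, 95% interval 4.77 to 5.52), or 35.4-fold (adjusted p = 0.000153 by limma). It stayed past the threshold in each of the 7 fits that left out a pool (adjusted p = 0.000384 to 0.00452 by limma).

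Igkj5, the last kappa J segment (chr6:70723886-70723927), was high in 3 congenic pools and lower in the fourth. Its values were 11.61, 11.09, 8.58 and 11.58 in NOD_Idd22 replicates 1 to 4 and 6.57, 6.70 and 6.66 in NOD-Rag1-/- replicates 1 to 3. All 4 congenic pools lay above the NOD-Rag1-/- pools, with replicate 3 closest to them. The log2 fold change of 4.07 (SE 0.71) did not pass (adjusted p = 0.12 by limma), whereas without NOD_Idd22 replicate 3 it was 4.78 and passed (adjusted p = 0.000592 by limma). Leaving out this pool, the lowest for Igkj5, also raised the limma calls over all tested probe sets from 54 to 258.

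Igkj3, a kappa J segment between these (chr6:70723223-70723258) that in the mouse is regarded as non-functional, stood much closer to background. It was at 4.76, 5.46, 4.93 and 6.02 in NOD_Idd22 replicates 1 to 4, and at 4.61, 3.46 and 3.90 in NOD-Rag1-/- replicates 1 to 3. The groups did not overlap, but the lowest congenic pool exceeded the highest NOD-Rag1-/- pool by only 0.15. Its log2 fold change was 1.30 (SE 0.37, 95% interval 0.43 to 2.18, adjusted p = 0.352 by limma).

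At the heavy chain locus Ighj4, the J segment nearest to Ighm (chr12:113428514-113428567), had the highest fold change of the 16. Its values were 9.06, 9.86, 9.51 and 10.35 in NOD_Idd22 replicates 1 to 4 and 4.58, 4.12 and 4.29 in NOD-Rag1-/- replicates 1 to 3. Every congenic pool was above every NOD-Rag1-/- pool by over 4 log2 units. The log2 fold change was 5.37 (SE 0.29, 95% interval 4.68 to 6.05), or 41.2-fold (adjusted p = 0.00178 by limma), and it passed in each fit that left out a pool (adjusted p = 0.00269 to 0.037 by limma).

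Ighj3 (chr12:113429085-113429132) varied more among the congenic pools than any other of the 16. It was at 9.61, 9.63, 7.27 and 11.12 in NOD_Idd22 replicates 1 to 4, against 5.29, 4.41 and 4.80 in NOD-Rag1-/- replicates 1 to 3. The groups did not overlap, and NOD_Idd22 replicate 3 was again the lowest. The log2 fold change of 4.57 (SE 0.81) did not pass (adjusted p = 0.124 by limma), whereas without NOD_Idd22 replicate 3 it was 5.28 and passed (adjusted p = 0.012 by limma). As stated for Igkj5, calls over all tested probe sets also rose without that pool, from 54 to 258.

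The Ighj2 probe set on Ighj1 was at 11.48, 11.04, 10.65 and 12.06 in NOD_Idd22 replicates 1 to 4 and at 7.53, 6.52 and 6.69 in NOD-Rag1-/- replicates 1 to 3. The groups were apart by over 3 log2 units, and the log2 fold change was 4.40 (SE 0.38), or 21.1-fold (adjusted p = 0.0115 by limma). The call did not hold without NOD-Rag1-/- replicate 1, 2 or 3 (adjusted p = 0.0532, 0.104 and 0.142 by limma) or without NOD_Idd22 replicate 2 (adjusted p = 0.0715 by limma), with log2 fold changes of 4.20 to 4.71 in these fits. The other Ighj2 probe set (chr12:113429514-113429567), almost all of it outside the segment, was at 2.58, 3.19, 2.73 and 2.39 in NOD_Idd22 replicates 1 to 4, against 2.45, 1.71 and 1.92 in NOD-Rag1-/- replicates 1 to 3. Its groups overlapped, with a log2 fold change of 0.69 (SE 0.24, adjusted p = 0.448 by limma). The Ighj1 probe set on the D pseudogene Ighd5-8 was the only one of the 16 with a negative log2 fold change, -0.50 (SE 0.27, adjusted p = 0.59 by limma), and its values were 3.49 to 3.72 in NOD_Idd22 and 3.72 to 4.87 in NOD-Rag1-/-.

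**Figure D2:**
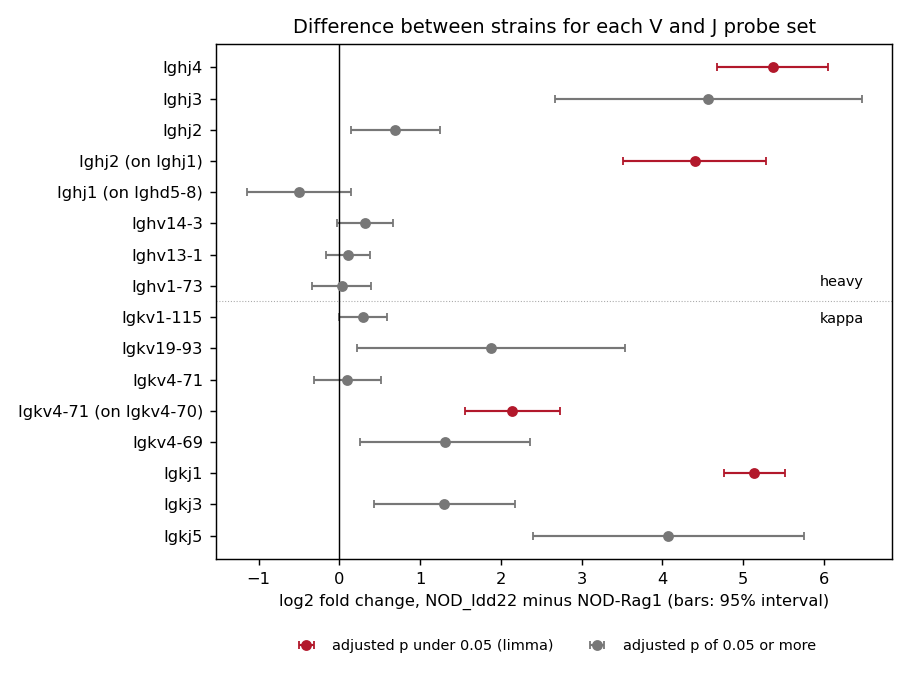
Log2 fold change (NOD_Idd22 minus NOD-Rag1-/-) of each of the 16 probe sets with its 95% interval from limma, in order of position, with red for an adjusted p under 0.05. Ighj4, the Ighj2 probe set on Ighj1 and Igkj1 lie at 4.40 to 5.37 and the Igkv4-71 probe set on Igkv4-70 at 2.14, while Ighj3 and Igkj5 have wide intervals.

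Igkj1 and Igkj5, and likewise Ighj4 and Ighj3, lie close together in the J cluster of their locus, so their difference within an array was followed from pool to pool. The Igkj5 value minus the Igkj1 value was 0.20, -0.19, -2.35 and 0.47 in NOD_Idd22 replicates 1 to 4 and 0.75, 0.71 and 0.35 in NOD-Rag1-/- replicates 1 to 3. The Ighj3 value minus the Ighj4 value was 0.54, -0.23, -2.24 and 0.77 in NOD_Idd22 replicates 1 to 4 and 0.71, 0.28 and 0.51 in NOD-Rag1-/- replicates 1 to 3. In NOD_Idd22 replicate 3, at both loci, one J segment was thus low relative to the other of its pair, which was close to its level in the other congenic pools. These differences are a description chosen after the values had been seen.

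**Figure D3:**
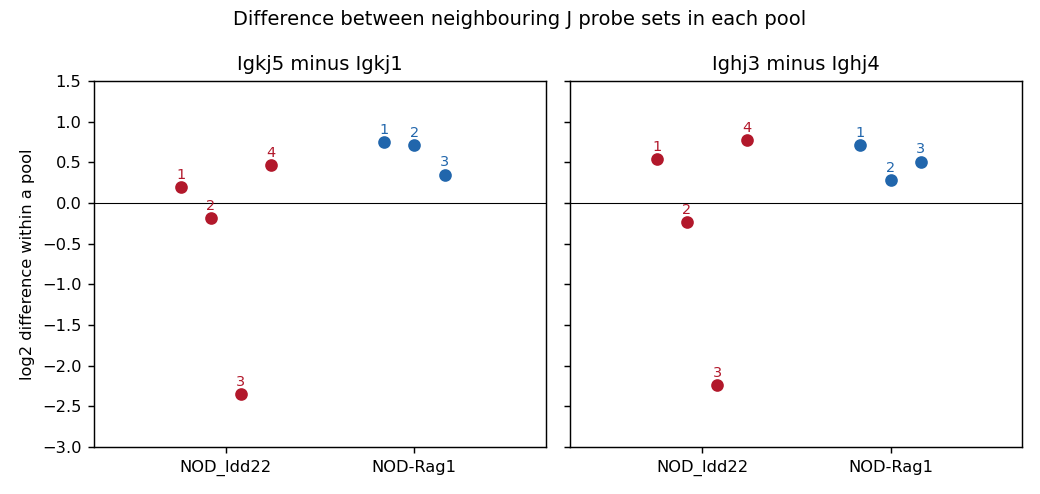
Log2 difference between J probe sets of the same locus within each pool, Igkj5 minus Igkj1 (left panel) and Ighj3 minus Ighj4 (right panel), for NOD_Idd22 pools (red) and NOD-Rag1-/- pools (blue), numbered by replicate. NOD_Idd22 replicate 3 lies at -2.35 and -2.24, and the other pools lie between -0.23 and 0.77.

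V segments give an antibody chain most of its antigen-binding face. Those with a symbol had a median log2 fold change of 1.31 at the kappa locus (5 probe sets) and 0.11 at the heavy chain locus (3 probe sets). The order was the other way among the V probe sets without a symbol, described below, at 0.62 for kappa (98 probe sets) and 1.11 for the heavy chain (105 probe sets). Among the 5 kappa V probe sets, 1 was called higher by limma, against 0.146% of all tested. At the study's threshold 3 were higher, against 3.81%, and in 2 all congenic pools lay above the NOD-Rag1-/- pools, against 4.43%. The Igkv4-71 probe set on Igkv4-70 was at 5.06, 5.44, 4.51 and 5.34 in NOD_Idd22 replicates 1 to 4 and at 3.30, 2.80 and 2.73 in NOD-Rag1-/- replicates 1 to 3. All congenic pools were higher, by 2.14 on the log2 scale (SE 0.25, 95% interval 1.56 to 2.73), or 4.42-fold (adjusted p = 0.0396 by limma). The call was lost when any single pool other than NOD_Idd22 replicate 3 was left out (adjusted p = 0.051 to 0.309 by limma) and with the array set as a block (adjusted p = 0.0948 by limma), with log2 fold changes of 2.03 to 2.32 in these fits.

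Igkv4-69, its neighbour (chr6:69283794-69284319), was at 4.32, 3.21, 2.20 and 3.63 in NOD_Idd22 replicates 1 to 4, against 2.14, 1.84 and 2.11 in NOD-Rag1-/- replicates 1 to 3. NOD_Idd22 replicate 1 was the highest and replicate 3 differed from the highest NOD-Rag1-/- pool by 0.06 only, so that the log2 fold change of 1.31 (SE 0.45) did not pass (adjusted p = 0.446 by limma). Igkv19-93 (chr6:68736297-68736764) was at 5.39, 6.70, 4.59 and 7.59 in NOD_Idd22 replicates 1 to 4, against 4.84, 3.65 and 4.07 in NOD-Rag1-/- replicates 1 to 3. The groups overlapped through NOD_Idd22 replicate 3, and the log2 fold change was 1.88 (SE 0.70, adjusted p = 0.485 by limma).

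The other kappa V probe sets and all 3 heavy chain V probe sets were near background in both groups. Igkv4-71 at its own position was at 1.13 to 1.92 in NOD_Idd22 and 1.30 to 1.40 in NOD-Rag1-/-. Igkv1-115, a V pseudogene in RefSeq, was at 1.55 to 1.97 in NOD_Idd22 and 1.27 to 1.59 in NOD-Rag1-/-. Ighv14-3, Ighv13-1 and Ighv1-73 had values of 1.60 to 2.69 in NOD_Idd22 and 1.42 to 2.35 in NOD-Rag1-/-, with log2 fold changes of 0.32, 0.11 and 0.03 and overlapping groups (adjusted p = 0.554, 0.761 and 0.968 by limma). Those of Ighv13-1, Ighv1-73 and the Igkv4-71 probe set at its own position (0.10) turned negative when each array was centred on its median, a setting that lowers every difference by 0.12.

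The 7 pools were also permuted exactly (35 splits, two-sided, smallest p 0.0286 by this exact test). The 4 called probe sets and Igkj3 reached that smallest p. For Ighj3, Igkj5 and Igkv4-69, in which another split gave a difference as large, the exact test gave p = 0.0571.

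The 4 congenic pools differed in how many V and J segments stood out. A probe set was counted in a pool when it lay over 1 log2 unit above every NOD-Rag1-/- pool. There were 7 of 16 in NOD_Idd22 replicate 1, 8 in replicate 2, 6 in replicate 3 and 9 in replicate 4, against 1.8%, 2.15%, 0.9% and 1.84% of all tested probe sets. Of the 16, 6 were counted in all 4 pools (against 0.355% of all tested), namely Ighj4, Ighj3, the Ighj2 probe set on Ighj1, Igkj1, Igkj5 and the Igkv4-71 probe set on Igkv4-70. In at least 1 pool there were 9 of the 16, against 3.57% of all tested, and 7 were counted in none. NOD_Idd22 replicate 3 was the lowest congenic pool for 7 of the 16 (43.8%), against 16.6% of all tested probe sets, and it fell short of the mean of the other 3 pools by most in Ighj3 (-2.85), Igkj5 (-2.84) and Igkv19-93 (-1.97). NOD_Idd22 replicate 4 exceeded the mean of the other 3 pools by 2.29 in Ighj3 and 2.02 in Igkv19-93, and replicate 1 by 1.30 in Igkv4-69. The SD was larger in NOD_Idd22 than in NOD-Rag1-/- for 11 of the 16 (68.8%), against 61.8% of all tested probe sets.

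**Figure D4:**
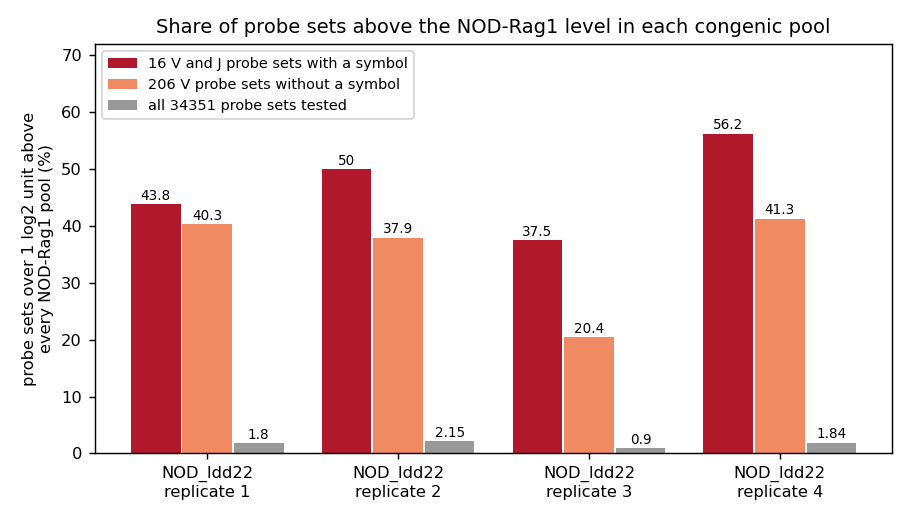
Percentage of probe sets that lay over 1 log2 unit above every NOD-Rag1-/- pool in each NOD_Idd22 pool, for the 16 V and J probe sets with a symbol (red), 206 V probe sets without a symbol (orange) and all 34351 tested (grey). The red bars run from 37.5% to 56.2% and the orange bars from 20.4% to 41.3%, both lowest in replicate 3, and the grey bars stay at 0.9% to 2.15%.

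Most V segments on the array carried no symbol in the comparison table, and were found by position. There were 206 probe sets without a symbol that overlapped exactly 1 RefSeq V segment (105 heavy chain, 98 kappa and 3 lambda). Any overlap counted, strand was not used, and some probe sets reached far beyond the segment. A further 5 on several segments were left out. Of the 206, 9 were called higher by limma (4.37%, against 0.146% of all tested) and 0 lower. At the study's threshold 96 were higher (46.6%, against 3.81% of all tested) and 0 lower. A positive log2 fold change was seen for 191 (92.7%, against 55.1% of all tested). Their median log2 fold change was 0.79, at 1.11 for heavy chain, 0.62 for kappa and 2.54 for lambda, and it was 0.94 for the 192 functional segments and 0.16 for the 14 pseudogenes. The 9 called, which no rule had set out to name, were Ighv5-4, Ighv5-6, Ighv9-3, Ighv1-9, Ighv1-34, Ighv1-37 and Ighv1-82 of the heavy chain and Igkv4-62 and Igkv8-24 of kappa. Igkv8-24, picked after the values had been seen, had the highest fold change of the 206. It was at 8.58, 8.89, 6.35 and 9.17 in NOD_Idd22 replicates 1 to 4 and 2.32, 1.76 and 2.03 in NOD-Rag1-/- replicates 1 to 3, a log2 fold change of 6.22 (SE 0.65, adjusted p = 0.0234 by limma). V segments of a family are alike in sequence, and whether a probe set also reads its relatives was not tested. The probe sets on Ighv1-62-2 and Ighv1-71 had the same value in each of the 7 pools and are both counted, so the 206 are not all separate readings. Ighv1-62-1 was overlapped by more than 1 probe set, with log2 fold changes of 4.59 and 0.16, and these are counted apart.

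**Figure D5:**
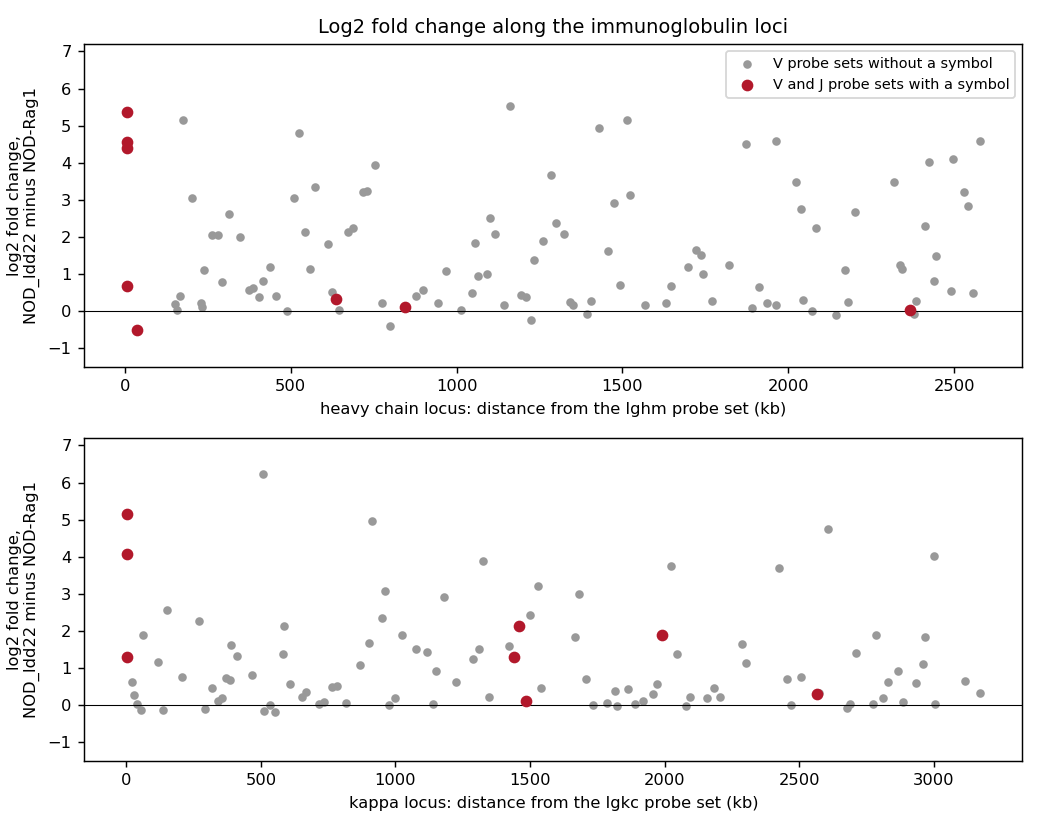
Log2 fold change (NOD_Idd22 minus NOD-Rag1-/-) of each V and J probe set against its distance in kb from the constant region probe set of its locus, Ighm (top) and Igkc (bottom), with red for probe sets with a symbol and grey for V probe sets without one. High and low fold changes lie side by side along both loci, with a median of 1.11 over the grey heavy chain points and 0.62 over the grey kappa points.

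Many V segments without a symbol were uneven between congenic pools. Of the 206, 36 lay over 1 log2 unit above every NOD-Rag1-/- pool in all 4 congenic pools (17.5%, against 0.355% of all tested). In 1 pool only there were 29 (14.1%, against 1.82% of all tested), and 94 were counted in none. The count per pool was 83, 78, 42 and 85 in NOD_Idd22 replicates 1 to 4, against 1.8%, 2.15%, 0.9% and 1.84% of all tested. The SD was larger in NOD_Idd22 for 169 of the 206 (82%, against 61.8% of all tested). Their median level was 2.47 in NOD-Rag1-/- and 3.88 in NOD_Idd22, against 3.88 and 4.01 for all tested. The SDs were thus compared at unlike levels, and the part of level in them was not tested. As an example picked after the values had been seen, Ighv5-12 was at 7.87, 3.48, 2.06 and 3.51 in NOD_Idd22 replicates 1 to 4 and 2.21, 2.05 and 2.27 in NOD-Rag1-/- replicates 1 to 3. Ighv4-1, picked in the same way, was at 9.10, 3.36, 4.56 and 9.75 in NOD_Idd22 replicates 1 to 4 and 1.94, 1.98 and 1.78 in NOD-Rag1-/- replicates 1 to 3. Ighv5-12 was thus highest in replicate 1, and Ighv4-1 in replicates 1 and 4. NOD_Idd22 replicate 3 was the lowest congenic pool for 95 of the 206 (46.1%, against 16.6% of all tested).

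V and J segments are spliced to constant regions. Of 9 measured constant region and J chain genes, 4 were called higher by limma (Igkc, Ighm, Ighg2b and Jchain), against 0.146% of all tested probe sets. None was called lower, and the median log2 fold change was 4.50. Igkc, the kappa constant region, was at 11.92, 11.85, 10.71 and 11.92 in NOD_Idd22 replicates 1 to 4, against 3.45, 3.99 and 3.91 in NOD-Rag1-/- replicates 1 to 3. Ighm, the constant region of IgM, was at 11.27, 10.95, 9.61 and 11.45 in NOD_Idd22 replicates 1 to 4, against 4.42, 4.20 and 4.34 in NOD-Rag1-/- replicates 1 to 3. NOD_Idd22 replicate 3 was the lowest congenic pool in both, as it was for Jchain, the small protein that links IgM and IgA into polymers, at 7.23, 7.74, 5.90 and 8.12 in NOD_Idd22 replicates 1 to 4 (log2 fold change 5.23, adjusted p = 0.0184 by limma) and 1.76 to 2.33 in NOD-Rag1-/-.

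Genes of the B cells that carry rearranged segments were measured beside them. Of 19 genes of the B cell receptor and of immunoglobulin transcription, 15 were higher at the study's threshold, against 3.81% of all tested, and 0 lower. Their median log2 fold change was 1.21, and 0 were called by limma. At an unadjusted p under 0.05 there were 15, against 3257 of 34351 tested. Cd79a, which pairs with Cd79b to carry the signal of the receptor, was at 5.74, 6.34, 5.53 and 7.18 in NOD_Idd22 replicates 1 to 4 and 5.18, 4.59 and 4.56 in NOD-Rag1-/- replicates 1 to 3 (log2 fold change 1.42, adjusted p = 0.341 by limma). Cd79b differed by 1.37 on the log2 scale (adjusted p = 0.355 by limma). Of 14 genes of recombination, joining and diversification, 0 were called by limma or past the study's threshold. At an unadjusted p under 0.05 there was 1, against 3257 of 34351 tested. Rag1 itself differed by -0.36 on the log2 scale (adjusted p = 0.577 by limma), at 3.25 to 3.87 in NOD_Idd22 and 3.63 to 4.21 in NOD-Rag1-/-, so that the groups overlapped. Whether its probes lie in the deleted part is not known, so this does not check the labels.

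Marker lists of the cells that islet pools can hold are given beside these values, with counts at the study's threshold. Of all tested probe sets, 3.81% were higher at that threshold. The summed log2 level of 7 B cell markers was 30.4 to 40.8 in NOD_Idd22 and 24.6 to 27.6 in NOD-Rag1-/-, and 7 of 7 were higher. For 7 T cell markers it was 41.4 to 52.9 in NOD_Idd22 and 26.6 to 31.0 in NOD-Rag1-/- (7 of 7 higher), and for 7 plasma cell markers 38.4 to 42.5 and 32.8 to 34.0 (3 of 7 higher). Among the plasma cell markers the log2 fold change was 5.23 for Jchain, 1.41 for Irf4 and 0.76 for Mzb1. The rest ran from -0.43 (Sdc1) to 0.28 (Prdm1), so the gap between the sums is mostly that of Jchain. Of 4 macrophage and dendritic markers 3 were higher, with sums of 23.6 to 30.9 in NOD_Idd22 and 23.0 to 25.9 in NOD-Rag1-/-. NOD_Idd22 replicate 3 was the lowest congenic pool in each of these 4 lists. The sum of 5 acinar markers was 43.6 to 56.7 in NOD_Idd22 and 22.6 to 40.4 in NOD-Rag1-/- (5 of 5 higher), that of 3 endothelial markers 22.3 to 25.2 and 17.2 to 21.0 (3 of 3 higher), and for both NOD_Idd22 replicate 1 was the lowest congenic pool. The 7 islet endocrine markers had sums of 80.8 to 83.3 in NOD_Idd22 and 81.0 to 82.0 in NOD-Rag1-/-, with 0 past the study's threshold, and the 4 early B lineage markers 11.4 to 12.6 and 11.0 to 12.3, again with 0. The part of these cells in the V and J values was not tested, and in pooled islets more cells of a type cannot be told apart from more RNA per cell.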

How the data were processed

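Islet RNA of 4 NOD_Idd22 and 3 NOD-Rag1-/- pools was hybridised to Affymetrix Mouse Gene arrays. Deposited values are log2 expression values that the authors made with RMA, whose version is not given in the sources used here. The authors' comparison table supplied symbols and positions of the probe sets. Its log2 fold changes and p-values are the authors' own deposited results and were not used.

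NOD_Idd22 minus NOD-Rag1-/- was fitted in R 4.3.3 by lmFit and eBayes of limma 3.58.1 (no block, no filter on dim probe sets), with Benjamini-Hochberg adjustment over 34351 annotated probe sets, while 121 without annotation were left out. Single probe sets had in addition an exact permutation test, two-sided, with 35 splits. The script was tested on simulated data. RefSeq segments (GRCm38.p6) were matched by position in Python 3.11.15 with pandas 2.3.3, and plots were drawn with matplotlib 3.10.9. Listed genes with more than 1 probe set were read from the brightest, and Jchain and Adgre1 were read under their older symbols Igj and Emr1.

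Every V and J probe set with a symbol is reported, with Igkc, Ighm, Jchain, Cd79a, Cd79b and Rag1 as partners (another planned partner is not reported here), and the V segments without a symbol and other genes with values were picked after these were seen. The members and lists were chosen with earlier results of these data known. Replicates are pools of 2 mice. RMA shares probe effects across arrays and forces arrays towards one distribution, so the values are relative. Precision is set by the number of pools, since arrays give no counts. The alternatives were other normalizations, filters, thresholds, tests and blocks, and leaving out each pool.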

Additional observations from a re-analysis of the deposited data

How the results depend on the processing

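The median log2 fold change of the V and J probe sets kept stayed positive in every alternative for which it was computed, whereas the number of calls moved. For the t-tests, among others, the median was not computed. Against 4 called higher by limma, leaving out single pools gave 2 to 6: 2 without NOD-Rag1-/- replicate 1, 2 or 3 or without NOD_Idd22 replicate 2, and 6 without NOD_Idd22 replicate 3. Calls over all tested probe sets, in either direction, moved the same way in these fits. From 54 they went to 11, 13 and 10 without NOD-Rag1-/- replicates 1, 2 and 3. They were 17 without NOD_Idd22 replicate 2 and 258 without NOD_Idd22 replicate 3. An adjusted p of 0.01 left 2. The paper's transcriptome methods name no test, but a figure legend names an unpaired t-test. That test with equal variances called 1 of 16 after Benjamini-Hochberg adjustment and 7 at the study's threshold. Over all 34351 tested probe sets it called 1 and 1248. Its form with unequal variances called 0 after adjustment, with 7 at an unadjusted p under 0.05, against 2000 of 34351 tested. With the replicate number as a block limma called 0, with 7 at an unadjusted p under 0.05, against 1521 of 34351 tested. The labels do not say whether the numbers pair the pools. Deviations of same-numbered pools correlated at -0.38, -0.14 and -0.11. This cannot decide it, since array set and other differences between pools also enter the deviations. Among brighter probe sets only, 8 of the 16 remained, with a median log2 fold change of 4.24. A required excess of 2 log2 units left 3 in NOD_Idd22 replicate 3, against 6 at 1 unit.

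Differences close to 0 changed sign. Centring arrays on their medians gave -0.09 for Ighv1-73, -0.02 for the Igkv4-71 probe set at its own position and -0.01 for Ighv13-1. Ighv1-73 was -0.06 with the array set as a block and -0.03 with the replicate block, and it ran from -0.09 to 0.19 when single pools were left out (-0.02 and -0.09 without NOD-Rag1-/- replicates 2 and 3, -0.03 without NOD_Idd22 replicate 4). Igkv4-71 at its own position ran from -0.06 (without NOD_Idd22 replicate 2) to 0.20. Over the 16 probe sets and all alternatives, 244 values kept their direction and side of the threshold, 22 fell below it, 3 rose past it and 9 changed sign.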
